A study of Mus musculus with 10 samples.

Results

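The 44 genes described here drive or mark the division cycle of the cell: 23 of them act at the entry into S phase and in DNA replication (G1/S), and 21 act in or peak around G2 and mitosis (G2/M). They were taken by symbol, for their known roles, from the 60676 rows of a count table of mouse tumour cells. The choice was made with earlier results of these data known. All 44 were found and tested in each comparison. The table holds 10 RNA-seq libraries of MC38, a mouse colon carcinoma line, and B16, a mouse melanoma line. All cells, controls included, carried a knockdown of Sdc1, the gene of the cell surface proteoglycan syndecan-1, and all had been kept for 24 h in 10 ng/ml of the cytokine interferon gamma (IFNγ). Each group has 2 libraries. In MC38 one group had no added Sdc1, another re-expressed a mutant labelled c30 and the last a mutant labelled ect. In B16 one group had no added Sdc1 and the other re-expressed the wild-type form. The labels do not describe either mutant, and they give neither the hairpin nor whether a line is a single clone. Untreated cells, cells with intact Sdc1 and empty-vector cells are not analysed here. Whether replicates are separate cultures is not given, so the p-values cover a spread between libraries that may be technical.

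As background, D-type cyclins bind the kinases Cdk4 and Cdk6 in response to growth signals, and E-type cyclins bind Cdk2 later in G1. Both kinds of complex phosphorylate the retinoblastoma protein, which releases E2F factors to activate the genes of origin licensing, nucleotide supply and the replication fork. Later in the cycle the MuvB complex, with B-Myb and FoxM1, activates mitotic genes through a short promoter element called CHR, often beside CCAAT boxes bound by NF-Y. IFNγ is known to slow the division of many cell types, and MC38 and B16 are both widely used as transplantable tumours.

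Library totals lay between 11349447 and 15041133 counts. Levels of single libraries are given as CPM (counts per 1000000 counts of the library). A count of 0 allows up to 3 counts, or 0.199 to 0.264 CPM by library, and the lowest member value in any library was 10.8 CPM (135 counts of Gins2 in B16 wild-type replicate 2). Such limits cover counting error only. All libraries had a mitochondrial share of 1.23% to 1.79% of counts. As a check of the lines, 11 pigment cell markers together reached 13778 to 14604 CPM in B16 but only 7.23 to 13.8 CPM in MC38, where c30 replicate 2 had the highest value and Slc45a2, Gpr143 and Oca2 were at 0 throughout. Of 15 epithelial markers only 2 or 3 reached 1 CPM in an MC38 library, whereas all 12 mesenchymal markers did. The 14 leukocyte markers summed to 8.52 to 12.6 CPM over all libraries. Sdc1 itself stood at 24.5 and 29.99 CPM in the MC38 knockdown, 97.0 and 99.5 with c30 and 22.4 and 25.2 with ect, so c30 was higher (1.86 on the log2 scale, edgeR adjusted p = 6.18e-31) and the libraries labelled ect overlapped the knockdown (-0.17, 0.325). In B16 it stood at 40.7 and 43.1 CPM in the knockdown and 71.1 and 56.9 with wild type, above it in both libraries but not called (0.64, 0.269). Whether an added form is counted as Sdc1 is not known, and the labels are used as given. In bulk RNA a smaller share of cells in a cycle phase and less RNA per such cell cannot be told apart.

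The promoters below belong to some of the genes named in the results. Cdk2 and Cdk6 differed in opposite directions between the lines. Rrm2 and Mki67 moved in opposite directions with both mutants in MC38, and Cdc20, a mitotic gene, was lower in B16. Each sequence is the 200 bases before the RefSeq start of the gene on its own strand (build GRCm38.p6). Capitals mark matches to the letters of an E2F element (spelled TTCCCGC in its usual form, with TTGGCGC and then TTCGCGC as the variants searched), to a CHR (TTTGAA, with TTCGAA as its variant) or to a CCAAT box. Both strands were searched, and no matches of different motifs overlap in these windows.
Cdk2, chr10:128705052-128705251, minus strand: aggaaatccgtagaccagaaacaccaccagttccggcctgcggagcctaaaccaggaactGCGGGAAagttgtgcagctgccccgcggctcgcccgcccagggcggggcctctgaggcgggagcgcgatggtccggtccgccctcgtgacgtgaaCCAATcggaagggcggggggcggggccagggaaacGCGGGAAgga
Cdk6, chr5:3343693-3343892, plus strand: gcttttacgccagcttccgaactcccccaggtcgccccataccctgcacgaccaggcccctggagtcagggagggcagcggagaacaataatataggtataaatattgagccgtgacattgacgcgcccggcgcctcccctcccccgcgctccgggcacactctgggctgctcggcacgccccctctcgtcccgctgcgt
Rrm2, chr12:24708054-24708253, plus strand: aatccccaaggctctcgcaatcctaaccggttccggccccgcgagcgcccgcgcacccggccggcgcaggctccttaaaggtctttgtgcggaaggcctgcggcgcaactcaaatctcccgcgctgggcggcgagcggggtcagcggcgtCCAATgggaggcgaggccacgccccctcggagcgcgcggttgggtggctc
Mki67, chr7:135716380-135716579, minus strand: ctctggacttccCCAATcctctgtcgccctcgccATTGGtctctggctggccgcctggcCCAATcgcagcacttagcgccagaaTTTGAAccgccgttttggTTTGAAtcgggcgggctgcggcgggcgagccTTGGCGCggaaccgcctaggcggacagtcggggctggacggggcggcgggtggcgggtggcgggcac
Cdc20, chr4:118437344-118437543, minus strand: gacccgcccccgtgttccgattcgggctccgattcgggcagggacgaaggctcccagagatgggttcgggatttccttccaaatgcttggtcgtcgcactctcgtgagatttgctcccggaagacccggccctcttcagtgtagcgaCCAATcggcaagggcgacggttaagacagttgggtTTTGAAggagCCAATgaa
The Cdk2 window holds 2 E2F matches and 1 CCAAT box, and the Cdk6 window holds none of the motifs. Mki67 carries 3 CCAAT boxes ahead of 2 CHR matches and 1 E2F match, and Cdc20 has 1 CHR between 2 CCAAT boxes. Rrm2 has a single CCAAT box. The same windows of Ccne1 and Birc5, both higher with ect in MC38, and 1 window of Ccnd3, higher in B16, held none of the motifs. A further RefSeq window of Ccnd3 held 1 CCAAT box within 250 bases before its start. These windows are not printed, and whether motif and direction of change go together was not tested.

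RefSeq promoter windows were searched for 34 of the 44 members, in 37 windows. In 31 of these, letters after the start were found near the beginning of an annotated transcript of the gene. The rest, which were kept, include the windows of Mcm5 and Mcm6 and 1 window of Mcm7, all with an E2F match. Mcm7 held an E2F match in each of its windows. Ccnd1, Ccnd2, Ccne2, Mcm4, Gins2, Ccna2, Aurkb, Kif20a, Tpx2 and Foxm1 were not searched. Within 250 bases before the start, 7 of 21 G1/S windows (33.3%) and 3 of 16 G2/M windows (18.8%) held an E2F match, against 6.69% of all 32851 windows. A CHR match stood in 8 of 16 G2/M windows (50%), in 3 of 21 G1/S windows (14.3%) and in 17.2% of all windows. CCAAT boxes were found in 14 of 16 G2/M windows (87.5%), in 13 of 21 G1/S windows (61.9%) and in 33.9% of all windows. All 8 G2/M windows with a CHR also held a CCAAT box, a combination found in 6.02% of all windows. The G1/S windows also combined E2F with CCAAT in 6 of 21 (28.6%), against 2.38% of all windows. A match describes letters in a window and shows neither binding nor a cause, and these shares carry no test.

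Within a library the members spanned a wide range of levels. Levels per kilobase divide by all annotated exons of a gene merged, which can be longer than the transcript the cells make. The order of genes and the shares within families given below depend on that length. Which transcripts were expressed was not tested. Per kilobase of exon, the highest mean in the MC38 knockdown was 203 CPM per kb for Top2a, the DNA topoisomerase that untangles chromosomes. It was followed by 132 CPM per kb for Cdc20 and 125 CPM per kb for Pcna, the sliding clamp of DNA polymerases. The lowest were Ccnd3, at 6.83 CPM per kb, and Ccne2, at 6.46 CPM per kb, both cyclin genes. The replicates of a group lay close together in MC38, where the median absolute log2 ratio between replicates over the 44 members was 0.032 for c30, 0.054 for ect and 0.056 for the knockdown. It was 0.068 in the B16 knockdown and 0.15 in B16 wild type, where Gins2 differed most, by 1.37-fold.

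**Figure D1:**
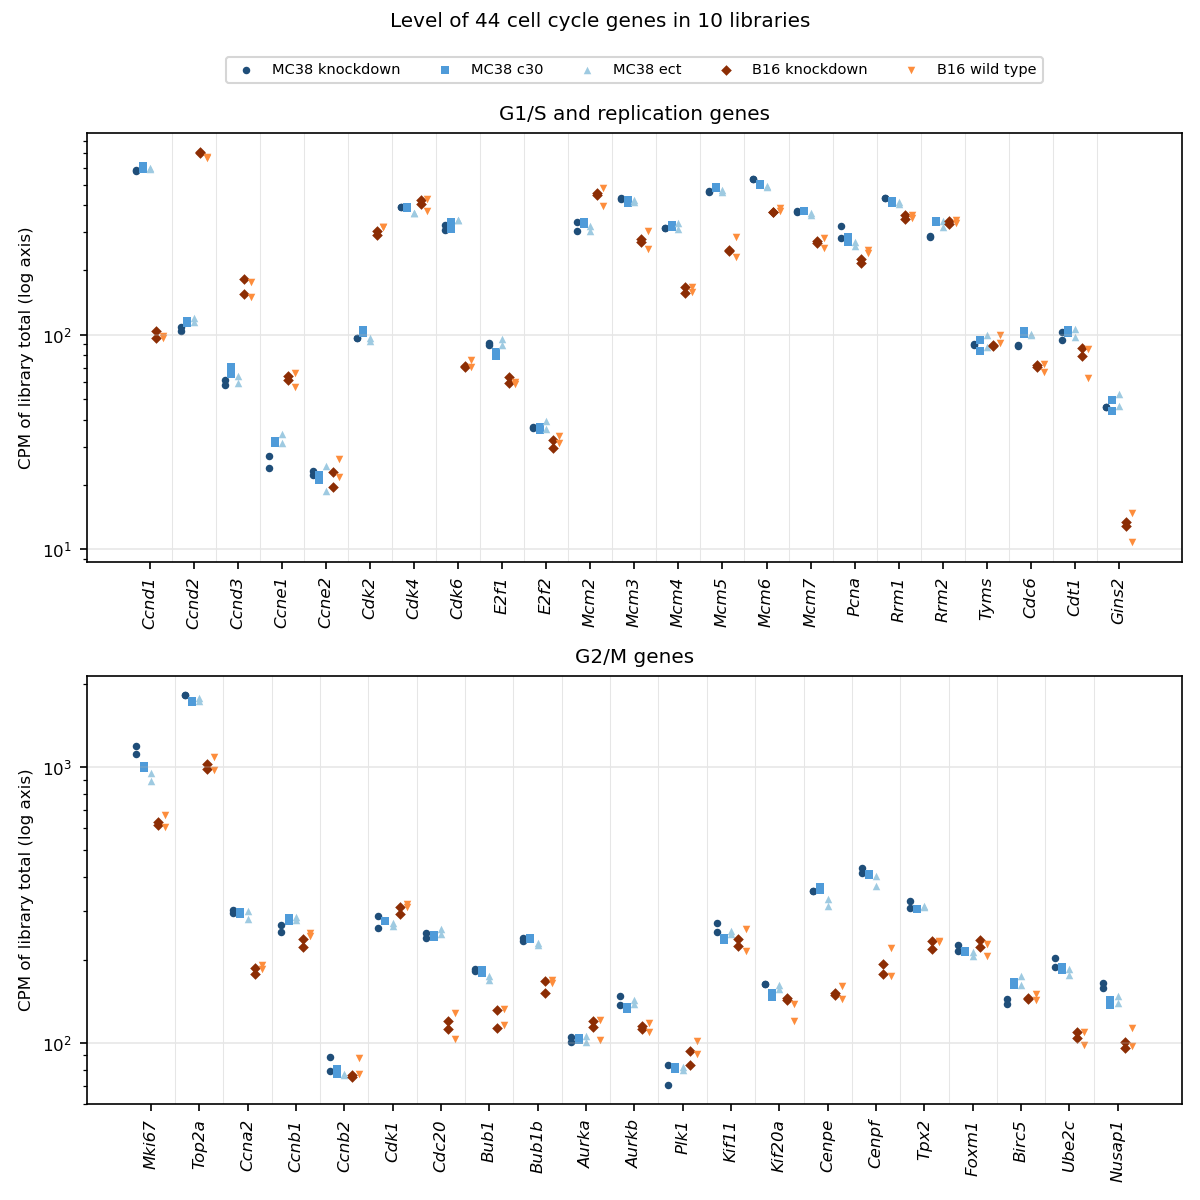
Level of each of the 44 genes in each of the 10 libraries, as CPM of the library total on a log axis; each point is 1 library, and colour and shape give the group. The G1/S panel shows the crossing of Ccnd1 and Cdk6, lower in B16, with Ccnd2, Ccnd3, Ccne1 and Cdk2, higher in B16, while most G2/M genes lie lower in the 4 B16 libraries than in the 6 MC38 libraries.

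The comparison of the knockdown groups asked how the cell cycle genes of both lines stand when neither carries a re-expressed form. The widest differences lay in Ccnd2, Ccnd1 and Cdk6, genes of G1 cyclins and their kinase, and most replication and mitotic genes were lower in B16. Of the 44 members, 9 were higher and 24 lower in B16 (edgeR adjusted p under 0.05, the threshold for every call here), so 75% were called, beside 68.2% of the 16877 genes tested. A call in itself is therefore close to the background, in which 33.8% were higher and 34.3% lower. The median log2 fold change was -0.25 over the G1/S genes and -0.45 over the G2/M genes, beside -0.01 over all genes tested. Counted over all groups, the 4 B16 libraries lay wholly below the 6 MC38 libraries for 28 members and wholly above for 7, and 9 overlapped. Of all genes 65.8% did not overlap, 35.3% below and 30.5% above. The lines also differ in tissue of origin and may differ in other properties of the cells, and the parts of these cannot be told apart here.

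Among the D-type cyclins Ccnd1 was lower and Ccnd2 and Ccnd3 higher in B16. Ccnd1, which encodes cyclin D1, had 582 and 588 CPM in the MC38 knockdown libraries and 96.9 and 104 CPM in those of B16, a log2 fold change of -2.50 (standard error (SE) 0.066, edgeR adjusted p = 1.03e-22). Ccnd2, for cyclin D2, had 104 and 108 CPM in MC38 and 707 and 701 CPM in B16 (log2 fold change 2.77, SE 0.066, edgeR adjusted p = 1.22e-23). Ccnd3, for cyclin D3, had 58.4 and 61.5 CPM in MC38 and 155 and 181 CPM in B16 (1.53, SE 0.088). None of these genes overlapped between the lines in any library: Ccnd1 ranged over 582 to 612 CPM in the 6 MC38 libraries and 96.7 to 104 in the 4 of B16, and Ccnd2 over 104 to 119 and 669 to 707. Per kilobase, Ccnd1 made up 87.3% ± 0.27 of the D-type cyclin transcripts in the MC38 knockdown and 18.5% ± 0.52 in that of B16 (SD, n = 2). Ccnd2 made up 7.93% ± 0.14 and 64.9% ± 2.0, and Ccnd3 4.80% ± 0.13 and 16.6% ± 1.4. The sum of the 3 differed less, at 142 ± 1.4 CPM per kb in MC38 and 115 ± 2.7 in B16. With re-expression the mean Ccnd1 share was 86.5% with c30, 86.7% with ect and 18.7% with wild type in B16. The exons of Ccnd1 share 23.4% of their length with LTO1 on the opposite strand, and LTO1 stood at 16.9 to 21.9 CPM over all libraries.

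Of the kinases, Cdk6 was lower and Cdk2 higher in B16. Cdk6, a partner of D-type cyclins, had 326 and 306 CPM in the MC38 knockdown and 70.9 and 71.7 CPM in that of B16 (-2.11, SE 0.07, edgeR adjusted p = 2.75e-20). Its close relative Cdk4 had 393 and 392 CPM in MC38 and 407 and 424 CPM in B16 and was not called (0.12, approximate 95% interval -0.005 to 0.25). These intervals are the value with normal quantiles of its SE, so with few libraries they are narrower than edgeR's test. The exons of Cdk4 share 641 bases, or 19.7% of their length, with Tspan31 on the opposite strand. Tspan31 ranged over 45.5 to 53.7 CPM in MC38 and 85.1 to 90.4 CPM in B16. Whether its reads were counted for Cdk4 was not tested. Cdk6 made up 15.8% ± 0.57 of the Cdk4 and Cdk6 transcripts per kilobase in MC38 and 3.83% ± 0.078 in B16, with sums of 143 ± 1.1 and 133 ± 3.7 CPM per kb. Cdk2, the partner of E-type cyclins, had 96.5 and 96.2 CPM in MC38 and 292 and 304 CPM in B16 (1.67, SE 0.066, edgeR adjusted p = 1.33e-18). Its exons share 34 bases, or 0.547% of their length, with the pigment gene Pmel on the opposite strand. Pmel itself ranged over 2134 to 2559 CPM in B16 and 0.290 to 2.18 CPM in MC38, and whether its reads were counted for Cdk2 was not tested. Of the E-type cyclins, Ccne1 had 27.2 and 23.9 CPM in MC38 and 64.1 and 61.6 CPM in B16 (1.34, SE 0.11, edgeR adjusted p = 9.47e-12). Ccne2 had 23.1 and 22.1 CPM in MC38 and 23.0 and 19.4 CPM in B16, ranges that overlapped (-0.05, approximate 95% interval -0.32 to 0.23). Ccne1 made up 59.7% ± 1.5 of the E-type cyclin transcripts per kilobase in MC38 and 79.6% ± 1.5 in B16.

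**Figure D2:**
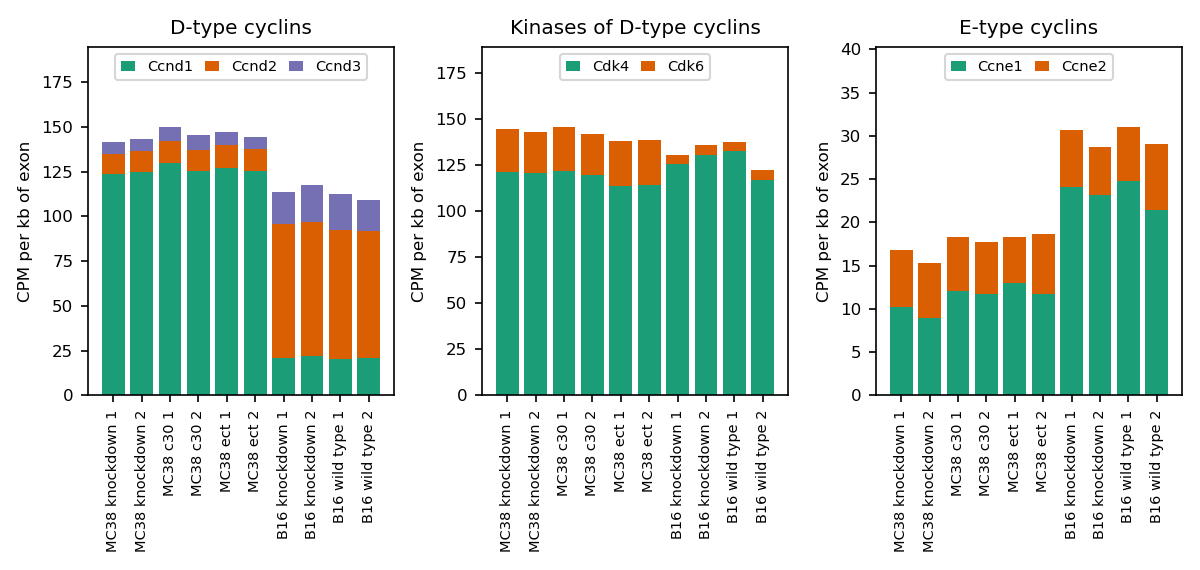
Level per kilobase of exon of the D-type cyclins, their kinases and the E-type cyclins in each library, in CPM per kb, with stacked bars for the members of a family. Ccnd1 fills most of the bar in the 6 MC38 libraries and Ccnd2 in the 4 B16 libraries, Cdk6 is small in B16, and Ccne1 is larger in B16.

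Of 7 genes of CDK inhibitors, which restrain these kinases, 4 had enough counts to be tested and all 4 were higher in B16. Of all genes tested, 68.2% were called between the lines and 33.8% were higher in B16. Cdkn1a, the gene of p21, had 37.5 and 36.7 CPM in MC38 and 168 and 164 CPM in B16 (2.20, SE 0.082, edgeR adjusted p = 3.34e-19). Cdkn1b, for p27, had 0.93 (SE 0.077) and Cdkn2d, for p19Ink4d, 1.06 (SE 0.11), while Cdkn2c, for p18Ink4c, had 0.31. Cdkn2a and Cdkn2b, neighbouring inhibitor genes, had 0 counts in all 10 libraries, which allows at most 0.264 CPM. Cdkn1c, for p57, had 0 counts in the 6 MC38 libraries and at most 0.609 CPM in B16.

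Most genes of E2F control, licensing and the fork were lower in B16, with clear exceptions. E2f1, an activating E2F factor, had 89.6 and 91.4 CPM in MC38 and 63.6 and 59.7 CPM in B16 (-0.51, SE 0.078, edgeR adjusted p = 1.63e-06), and E2f2, of the same class, was not called (-0.20, approximate 95% interval -0.41 to 0.01). Of the MCM genes, whose 6 products form the ring of the replicative helicase, 5 were lower in B16, beside 34.3% of all genes tested. Mcm4 had 313 and 315 CPM in MC38 and 156 and 167 CPM in B16 (-0.92, SE 0.066) and Mcm5 had 468 and 462 and 245 and 248 CPM (-0.87, SE 0.074). Mcm3 (-0.61), Mcm6 (-0.48) and Mcm7 (-0.42) followed. Mcm2 was higher in B16, with 306 and 333 CPM in MC38 and 447 and 456 CPM in B16 (0.54, SE 0.074, edgeR adjusted p = 3.17e-07), and all B16 libraries lay above all MC38 libraries. Per kilobase its share of the 6 MCM transcripts was 8.15% ± 0.48 in MC38 and 16.8% ± 0.10 in B16.

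Gins2, for a subunit of the GINS complex that completes the replicative helicase, differed more than any MCM gene. It had 46.2 and 45.9 CPM in the MC38 knockdown and 12.8 and 13.3 CPM in that of B16 (-1.78, SE 0.13, edgeR adjusted p = 1.86e-12). Its exons overlap those of Gse1 on the opposite strand over 2758 bases, or 67.3% of their length. Gse1 moved the same way, from 26.7 and 30.7 CPM to 10.2 and 11.8 CPM. Reads in the overlap may have been counted for either gene, for both or for neither, and their part was not tested. Of the licensing factors that load the helicase, Cdc6 had 89.6 and 88.8 CPM in MC38 and 70.3 and 71.8 CPM in B16 (-0.29, SE 0.075), and Cdt1 was not called (-0.21, approximate 95% interval -0.40 to -0.01, edgeR adjusted p = 0.0658), though it was among the 4 knockdown libraries alone (-0.22, 0.00356). Pcna had 319.8 and 281 CPM in MC38 and 215 and 226 CPM in B16 (-0.41, SE 0.068). The subunits of ribonucleotide reductase, which makes deoxynucleotides, differed in opposite directions: the large subunit gene Rrm1 was lower in B16 (-0.25, SE 0.062) and the small subunit gene Rrm2 higher, at 285 and 288 CPM in MC38 and 329 and 340.0 CPM in B16 (0.26, SE 0.062, edgeR adjusted p = 0.00048). Tyms, for thymidylate synthase, had 90.0 and 89.9 CPM in MC38 and 89.3 and 88.1 CPM in B16 (0.02, approximate 95% interval -0.14 to 0.18).

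Of the 21 G2/M genes, 12 were lower in B16, 3 kinase genes were higher and 6 were not called. That is 71.4% called, beside 68.2% of all genes tested (34.3% lower, 33.8% higher). The largest differences were in the kinetochore genes Cenpe, a mitotic motor, with 356 and 355 CPM in MC38 and 152 and 149 CPM in B16 (-1.20, SE 0.069, edgeR adjusted p = 6.65e-15), and Cenpf, with 414 and 432 and 193 and 178 CPM (-1.15, SE 0.083). Cdc20, the activator of the anaphase-promoting complex, had 241 and 251 CPM in MC38 and 120.0 and 112 CPM in B16 (-1.04, SE 0.079). In each of these genes every B16 library lay below every MC38 library. Mki67, the gene of the proliferation antigen Ki-67, had 1120.0 and 1192 CPM in MC38 and 632 and 618 CPM in B16 (-0.85, SE 0.065). Top2a had 1825 and 1827 CPM in MC38 and 1032 and 985 CPM in B16 (-0.82, SE 0.063). The ubiquitin-conjugating enzyme gene Ube2c (-0.84), the cyclin A2 gene Ccna2 (-0.68) and the spindle genes Nusap1 (-0.68) and Tpx2 (-0.45) were lower too, as were the checkpoint kinase genes Bub1 (-0.55) and Bub1b (-0.53) and the chromosomal passenger kinase gene Aurkb (-0.29).

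The other 9 G2/M genes include central regulators of mitosis. Plk1, a kinase of mitotic entry and exit, had 70.3 and 83.0 CPM in MC38 and 83.2 and 93.6 CPM in B16 (0.25, SE 0.085, edgeR adjusted p = 0.0124). Aurka, the spindle pole kinase that activates it, had 0.23 (SE 0.078, edgeR adjusted p = 0.012). Cdk1, the mitotic kinase, had 289 and 262 CPM in MC38 and 311 and 293 CPM in B16 (0.17, SE 0.066, edgeR adjusted p = 0.0219). Each of these calls was lost in 2 of 4 fits that left out a library: Plk1 without MC38 knockdown replicate 1 (0.13, adjusted p = 0.285) or B16 knockdown replicate 2 (0.18, 0.151), Aurka without MC38 knockdown replicate 2 (adjusted p = 0.0807) or B16 knockdown replicate 2 (0.0764), and Cdk1 without MC38 knockdown replicate 2 (0.12, 0.214) or B16 knockdown replicate 1 (0.12, 0.242). Correcting for the length and base composition (GC) of the longest annotated transcript also ended the call of Cdk1 (0.11, 0.0728). The cyclin B genes Ccnb1 (-0.13, approximate 95% interval -0.26 to -0.0041) and Ccnb2 (-0.10, -0.27 to 0.06), the kinesin genes Kif11 (-0.14, -0.29 to 0.01) and Kif20a (-0.13, -0.27 to 0.0027), the transcription factor gene Foxm1 (0.10, -0.03 to 0.23) and the survivin gene Birc5 (0.07, -0.06 to 0.21) were not called. With the length and GC correction Ccnb1 (-0.26), Kif11 (-0.30) and Kif20a (-0.17) were called as lower, and Foxm1 (0.24) and Cdk4 (0.24) as higher. Ccnb1, Kif11 and Kif20a were called as lower among the 4 knockdown libraries alone too.

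**Figure D3:**
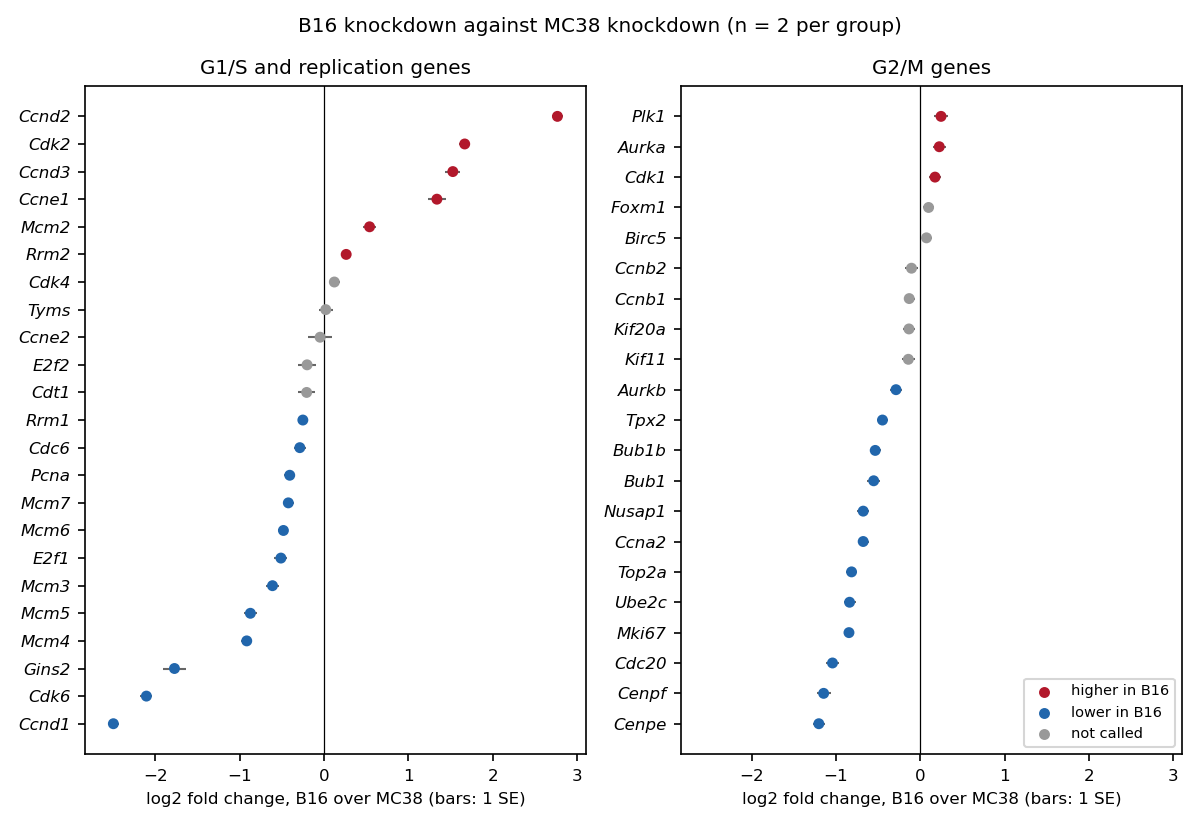
Log2 fold change of each member between the knockdown groups, B16 over MC38, with bars of 1 SE (n = 2 libraries per group); red is called higher, blue called lower and grey not called by edgeR. The G1/S genes reach from -2.50 for Ccnd1 to 2.77 for Ccnd2, and the G2/M genes lie between -1.20 and 0.25.

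Beyond the members, 6 further lists of the same machinery, chosen like the members with earlier results known, held more lower than higher genes in B16. Between 72.2% and 89.5% of each was called, beside 68.2% of all genes (33.8% higher, 34.3% lower), so for several lists the call itself is near the background. Of 37 further origin and fork genes, 21 were lower and 6 higher in B16, and the polymerase epsilon gene Pole (-1.31, SE 0.069) and the polymerase alpha genes Pola1 (-1.12) and Pola2 (-1.12) were lower. The 6 higher genes included Orc2 (0.50) and Orc3 (0.80), subunits of the origin recognition complex. Among 12 genes of nucleotide supply and chromatin assembly 8 were lower and 2 higher, with the histone chaperone gene Asf1b at -1.16. Of 16 genes of retinoblastoma, E2F and MuvB regulation 9 were lower and 3 higher, with E2f4 (-1.55), E2f8 (-1.50) and the B-Myb gene Mybl2 (-1.05) lower and E2f6 (0.84) higher. All 17 called genes among 19 of spindle and cytokinesis were lower, with Ect2, an activator of the cleavage furrow, at -1.06. Kinetochore and checkpoint genes counted 11 lower and 3 higher of 18, and other regulators of mitotic entry and exit 11 lower and 2 higher of 18. The kinase gene Melk had -1.17, whereas Cdc25a, a phosphatase that activates CDKs, was higher (1.01). Orc2, Orc3, E2f6 and Cdc25a were picked after their values were seen.

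The MC38 comparisons asked which of these genes differ once a mutant form of Sdc1 is present in the knockdown. The changes were small, at most 1.29-fold among called members, and they touched single genes on both sides of the cycle. With c30, 3 of 44 members were higher (Rrm2, Cdc6, Birc5) and 2 lower (Mki67, Nusap1), which is 11.4% beside 7.75% of the 15031 genes tested (3.3% higher, 4.45% lower). With ect, 4 were higher (Ccne1, Rrm2, Cdc6, Birc5) and 3 lower (Pcna, Mki67, Nusap1), which is 15.9% beside 8.16% (3.55% higher, 4.61% lower). Both comparisons use the same knockdown libraries, so a high or low knockdown library moves both, and values are given side by side without a count of what they share. For genes whose libraries all lay above or below the knockdown, here or in B16, the share over all genes was not counted. Such separation carries no test. In the G1/S genes the median log2 fold change was 0.03 with c30 and 0.04 with ect, in the G2/M genes it was -0.04 with each, and over all genes tested it was 0.00. These medians are small, and single libraries or settings moved them: the G1/S value with c30 was 0.01 without knockdown replicate 1 and 0.02 with no filter on low counts, and with ect 0.0062 without ect replicate 1, 0.02 without knockdown replicate 1 and 0.03 without ect replicate 2. The G2/M value with c30 was -0.02 without knockdown replicate 2 and -0.02 with the length and GC correction.

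Mki67 had the smallest p of the members with either form. It had 1120.0 and 1192 CPM in the knockdown, 1008 and 995 CPM with c30 and 952 and 892 CPM with ect. The 3 groups did not overlap, and the order was knockdown, c30, ect. The log2 fold change was -0.20 with c30 (SE 0.039, edgeR adjusted p = 0.000141) and -0.32 with ect (SE 0.039, edgeR adjusted p = 2.88e-09). The ect call held in all 12 alternative fits, and the c30 call in 11, all but the fit of all 10 libraries together (adjusted p = 0.12). Nusap1, which binds spindle microtubules, had 166 and 158 CPM in the knockdown, 143 and 137 with c30 and 139 and 148 with ect. It lay lower with each form (-0.21, SE 0.054, edgeR adjusted p = 0.0077 with c30; -0.16, SE 0.054, 0.0427 with ect), and the call was kept in 1 of 4 fits without a library for each form. Of these fits, those without knockdown replicate 1 or either re-expression library lost it. Both calls were also lost in the fit of all 10 libraries, and the ect call with DESeq2 (adjusted p = 0.134) and with no filter on low counts (0.0562).

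Top2a, like Mki67 an abundant gene with a mitotic peak, had 1825 and 1827 CPM in the knockdown, 1736 and 1732 with c30 and 1744 and 1788 with ect, and was not called (-0.07, approximate 95% interval -0.14 to -0.00011; -0.04, -0.11 to 0.03). Birc5, whose product survivin belongs to the chromosomal passenger complex and inhibits cell death, was the one G2/M gene called as higher. It had 144 and 139 CPM in the knockdown, 162 and 166 with c30 and 175 and 162 with ect, so both forms lay above the knockdown. The log2 fold change was 0.22 with c30 (SE 0.055, edgeR adjusted p = 0.00501) and 0.26 with ect (SE 0.054, edgeR adjusted p = 0.000348). The c30 call was lost without knockdown replicate 2 or c30 replicate 2, and the ect call without ect replicate 1. Both calls were also lost in the fit of all 10 libraries. The cyclin B1 gene Ccnb1 lay above the knockdown in every re-expression library, at 268 and 253 CPM in the knockdown, 283 and 276 with c30 and 279 and 285 with ect, and was not called (0.11 and 0.13, edgeR adjusted p = 0.173 and 0.0812). The other 17 G2/M genes, Top2a among them, had log2 fold changes between -0.14 and 0.09 and none was called. In fits without a library or with the length and GC correction, Kif11 passed for c30, and Ccnb1, Cenpe and Cenpf passed for ect.

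On the G1/S side, Rrm2 rose with both forms. It stood at 285 and 288 CPM in the knockdown, 338 and 334 with c30 and 319 and 340.5 with ect, and every re-expression library lay above both knockdown libraries. The log2 fold change was 0.23 with c30 (SE 0.046, edgeR adjusted p = 0.000194) and 0.21 with ect (SE 0.046, edgeR adjusted p = 0.000572). The c30 call was kept without each of the 4 libraries in turn, and the ect call was lost without ect replicate 2. Both calls were lost in the fit of all 10 libraries (edgeR adjusted p = 0.0532 with c30 and 0.079 with ect). Its partner Rrm1 had 432 and 434 CPM in the knockdown, 411 and 419 with c30 and 405 and 414 with ect, below the knockdown in every library, and was not called (-0.06, approximate 95% interval -0.14 to 0.03; -0.07, -0.15 to 0.02). Cdc6 had 89.6 and 88.8 CPM in the knockdown, 105 and 100.5 with c30 and 100.1 and 101 with ect (0.20, SE 0.06, edgeR adjusted p = 0.0197; 0.18, SE 0.059, 0.0389). Its calls were lost in every fit that left out a library, with adjusted p between 0.0535 and 0.221 for c30 and between 0.0956 and 0.199 for ect. Both were also lost with DESeq2 (0.114 and 0.157), with no filter on low counts (0.069 and 0.122) and in the fit of all 10 libraries.

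Ccne1 had the largest log2 fold change of any member with each form, at 27.2 and 23.9 CPM in the knockdown, 32.0 and 31.2 with c30 and 34.4 and 31.2 with ect. It was called with ect (0.37, SE 0.10, edgeR adjusted p = 0.0141) and not with c30 (0.31, SE 0.11, 0.0589), and c30 against ect was not called (-0.06, approximate 95% interval -0.26 to 0.15, adjusted p = 0.934). The ect call was lost without knockdown replicate 2 (adjusted p = 0.231) or ect replicate 1 (0.213), with DESeq2 (0.0858) and in the fit of all 10 libraries (0.0977). The c30 value was called without knockdown replicate 1 (0.40, 0.0436), with the filter of 5 CPM (0.31, 0.0442) and with the replicate block and the length and GC correction together (0.31, 0.046). Pcna had 319.8 and 281 CPM in the knockdown, 284 and 271 with c30 and 269 and 259 with ect. It was called as lower with ect (-0.17, SE 0.05, edgeR adjusted p = 0.0158) and not with c30 (-0.11, SE 0.05, 0.179). Knockdown replicate 1 was the highest library: without it the ect value was -0.08 (adjusted p = 0.453) and the call was also lost without ect replicate 2 (0.205), with DESeq2 (0.076) and in the fit of all 10 libraries (0.249). The c30 value was called without knockdown replicate 2 (-0.21, 0.0036) and with the length and GC correction (-0.13, 0.0466). Pcna was not called between c30 and ect (0.06, approximate 95% interval -0.04 to 0.16).

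The other G1/S genes were called with neither form. The D-type cyclins had 0.04 and 0.04 for Ccnd1, 0.11 and 0.15 for Ccnd2, and 0.18 and 0.05 for Ccnd3, with c30 and ect in that order. The kinases had 0.11 and -0.01 for Cdk2, 0.0013 and -0.08 for Cdk4, and 0.03 and 0.12 for Cdk6. The 6 MCM genes lay between -0.11 and 0.07 with both forms, and Mcm6 was lowest with each. E2f1 had 89.6 and 91.4 CPM in the knockdown, 83.4 and 79.3 with c30 and 89.6 and 95.01 with ect, and both c30 libraries lay below the other 4 (-0.15, edgeR adjusted p = 0.137). With the length and GC correction Cdk6 (0.14) and Ccnd2 (0.16) passed for ect.

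**Figure D4:**
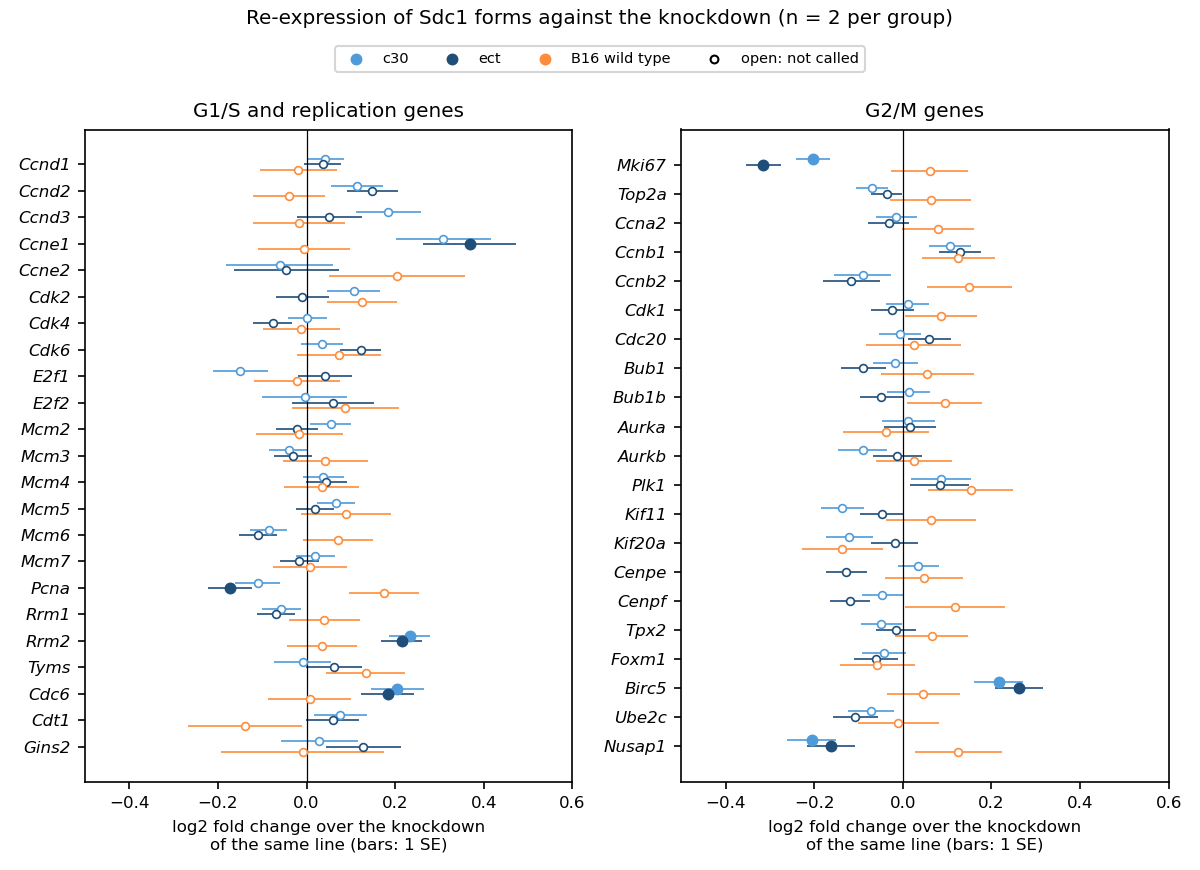
Log2 fold change of each member over the knockdown of the same line for c30 and ect in MC38 and for wild type in B16, with bars of 1 SE (n = 2 libraries per group); filled points are called by edgeR, open points are not. With c30 and ect the called members are Rrm2, Cdc6 and Birc5 above 0 and Mki67 and Nusap1 below 0, with Ccne1 and Pcna filled for ect but open for c30, which alternative fits also called, and none is called in B16.

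The mean log2 CPM of the 21 G2/M genes exceeded that of the 23 G1/S genes by 0.59 in both MC38 knockdown libraries, by 0.50 and 0.52 with c30 and by 0.52 and 0.50 with ect. All 4 re-expression values lay below both knockdown values, a description that carries no test. In B16 the same difference was 0.33 and 0.30 in the knockdown and 0.28 and 0.39 with wild type, which overlapped. The summed level of the G2/M genes was 7100 and 7171 CPM in the MC38 knockdown and 6712 to 6839 CPM with either form, and that of the G1/S genes 5521 and 5504 CPM and 5485 to 5628 CPM. Abundant genes such as Mki67 and Top2a weigh most on such sums.

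Counts of the other cell cycle lists in MC38 are to be read beside the 7.75% of all genes called with c30 and the 8.16% called with ect. With c30, the p27 gene Cdkn1b had 64.2 and 62.5 CPM in the knockdown and 53.1 and 53.7 CPM (-0.24, SE 0.077, edgeR adjusted p = 0.0336), and it was the only one called of 4 CDK inhibitors. The pocket protein gene Rbl1 was lower (-0.19, 1 of 16 regulators) and the polymerase delta gene Pold2 higher (0.22, 1 of 37 origin and fork genes). Of 19 spindle and cytokinesis genes, Kif22 (-0.18), Anln (-0.14) and Ckap2l (-0.19) were lower and none was higher. No gene of nucleotide supply, kinetochore or mitotic entry lists was called with c30 by edgeR, against 1, 3 and 2 at an unadjusted p under 0.05. With ect, 1 of 37 origin and fork genes was higher, Rfc3 (0.28), and 1 lower, Rfc1 (-0.16), both genes of the clamp loader. The kinetochore gene Knl1 (-0.22, 1 of 18) and the kinesin gene Kif15 (-0.23, 1 of 19) were lower, and Skp2, part of the ubiquitin ligase that degrades p27, was higher (0.25, 1 of 18). No CDK inhibitor, E2F regulator or gene of nucleotide supply was called with ect by edgeR, against 3, 3 and 1 at an unadjusted p under 0.05. Cdkn1b had 54.0 and 55.1 CPM with ect and was not called (-0.20, edgeR adjusted p = 0.0795).

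Between c30 and ect no member was called by edgeR, beside 0.299% of all genes tested (45 genes). At an unadjusted p under 0.05 there were 3 members, E2f1 (-0.19, approximate 95% interval -0.31 to -0.07), Mki67 (0.11, 0.03 to 0.19) and Cenpe (0.16, 0.07 to 0.25). Cenpe had 356 and 355 CPM in the knockdown, 358 and 369 with c30 and 333 and 313 with ect. It was called with the length and GC correction (0.17, adjusted p = 0.0278), and DESeq2 called 0 members. In the other cell cycle lists edgeR called 0 genes, against 0 to 3 per list at an unadjusted p under 0.05.

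The B16 comparison asked the same of wild-type Sdc1. No member was called by edgeR, beside 0.0% of 14336 genes tested (0 genes), none reached an unadjusted p under 0.05, and DESeq2 called 0 members and 11 genes in all. Of the D-type cyclins, Ccnd2 had 707 and 701 CPM in the knockdown and 675 and 669 CPM with wild type, below the knockdown in both libraries (-0.04, approximate 95% interval -0.20 to 0.12), and Ccnd1 had 96.9 and 104 and 96.7 and 98.0 CPM (-0.02, -0.19 to 0.15). Cdk2 had 292 and 304 CPM in the knockdown and 319 and 319 CPM with wild type, above the knockdown in both libraries (0.12, -0.03 to 0.28). Mki67 had 632 and 618 CPM and 607 and 672 CPM (0.06, -0.11 to 0.23), and Rrm2 329 and 340.0 CPM and 332 and 341 CPM (0.04, -0.12 to 0.19). Pcna lay higher in both wild-type libraries, at 215 and 226 CPM and 247 and 241 CPM (0.17, 0.02 to 0.33). Median log2 fold changes were 0.03 for the G1/S genes and 0.06 for the G2/M genes, and 31 of 44 members were above 0, as were 7180 of all 14336 genes. Single libraries set these medians: the G1/S value was -0.03 without wild-type replicate 1 (10 of 23 above 0), 0.08 without wild-type replicate 2 and 0.02 without knockdown replicate 2, where the G2/M value was 0.02. In the other lists edgeR called 0 genes here, against 0 to 2 per list at an unadjusted p under 0.05, and 0 in the difference from MC38 described last, against 0 to 5.

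The wild-type replicates stood apart in a way that followed transcript length. Genes under 2 kb were 0.09 higher and genes over 5 kb 0.04 lower on the log2 scale in replicate 1 than the mean of all 4 B16 libraries, and 0.06 lower and 0.04 higher in replicate 2. Of the 9 members with the longest exons, 6 were higher in replicate 2, with Cenpf at 175 and 220.4 CPM. Of the 23 G1/S genes, 18 were lower in replicate 2. Among members that passed without replicate 1, Cenpf (0.28), Nusap1 (0.23) and Kif11 (0.20) were higher and Cdt1 (-0.37) and Kif20a (-0.24) lower. Without replicate 2 the member that passed was Mcm5 (0.23). Many genes outside the members passed in these fits too, so passing does not in itself set the members apart. The values of these members rest on a single wild-type library, and the part of length in them was not tested. The length and GC correction was run only with all 4 B16 libraries. No member was called there with or without it, so it does not bear on these values.

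The difference between the B16 and MC38 effects was tested in a fit of all 10 libraries, as the B16 change minus the mean change of c30 and ect. The re-expressed forms are not the same in both lines, so line and form cannot be told apart. No member was called by edgeR, beside 0.486% of all genes tested (82 genes), and 9 members had an unadjusted p under 0.05. Mki67 was nearest, with a difference of 0.32 (approximate 95% interval 0.15 to 0.48, edgeR adjusted p = 0.0961), followed by Pcna (0.32, 0.14 to 0.49, 0.122) and Nusap1 (0.31, 0.12 to 0.50, 0.18). Their values in B16 lay above 0 and in MC38 below it. Both Mki67 and Pcna passed without a filter on low counts (adjusted p = 0.0143 and 0.0413) and with the length and GC correction (0.00203 and 0.0301), and Mki67 with DESeq2 (0.0229). Without wild-type replicate 1 the difference was 0.39 for Mki67, 0.29 for Pcna, -0.45 for Cdt1, 0.28 for Kif11 and -0.45 for Ccne1. In that fit it was 0.35 for Cenpf, 0.41 for Nusap1 and 0.19 for Top2a. Without wild-type replicate 2 it was 0.25 for Mki67, 0.34 for Pcna and 0.35 for Ccnb2. Each of these fits holds a single wild-type library. The members are given because they passed there, as did many genes outside the members, so passing does not set them apart. For Rrm2 the difference was -0.19 (-0.35 to -0.03), for Birc5 -0.19 (-0.37 to -0.02) and for Ccne1 -0.35 (-0.62 to -0.07), and none of these passed with all libraries.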

How the data were processed

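RNA-seq counts of 10 libraries of mouse MC38 and B16 cells were analysed as whole-number counts per gene, as deposited by the authors in a single table. Per the submitters' processing notes, Trimmomatic, HISAT2 2.0.5, HTSeq, featureCounts, DESeq2 and the build GRCm39 were used. Their order, the annotation and the strand setting are not given in the sources used here. Of 60676 rows, 57180 carry Ensembl IDs and 3496 carry XLOC IDs, and 51884 IDs matched a symbol. Lin54 had no match and is missing from its list of regulators. The members and lists were chosen with earlier results of these data known. All 44 members may be named, with called ones in full, and of each other list up to 3 called genes with the smallest adjusted p. Counts were tested with edgeR 4.0.16 (R 4.3.3; quasi-likelihood F test, TMM, filterByExpr) in separate fits of the 6 MC38 and the 4 B16 libraries, and in 1 fit of all 10 for the lines and the difference of effects. P-values were adjusted by Benjamini-Hochberg over all genes tested, with a threshold of 0.05, and the script was tested on simulated data. Each SE is the log2 fold change divided by the square root of edgeR's F. Levels per kilobase used merged exon lengths from the GENCODE M21 annotation of GRCm38, and no coordinates were carried between builds. Promoters came from RefSeq on GRCm38.p6. Alternatives were RLE size factors, no filter, at least 5 CPM in 2 libraries, the replicate number as a block, a length and GC correction (mgcv 1.9.3), DESeq2 1.42.0, 1 fit of all libraries, only the 4 knockdown libraries, and each library left out in turn. Where a group is then left with 1 library, that library is assumed to vary like the others.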

Additional observations from a re-analysis of the deposited data

How the results depend on the processing

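Of the called members in each comparison and Sdc1, none changed direction under the alternatives run. Members that were not called did change sign, for example in B16 wild type, where 14 of 23 G1/S genes lay above 0, 20 with the length and GC correction and 10 without wild-type replicate 1. RLE size factors and the filter of 5 CPM moved no count of calls by over 1.5 times. Gene counts are given over all genes, then members. For c30 (1165 genes, 5 members), DESeq2 called 513 genes, and 1 fit of all 10 libraries called 254 and 0 members. Leaving out a library gave 464 to 992 genes and 2 to 5 members, lowest in members without c30 replicate 2. For ect (1227 genes, 7 members), DESeq2 called 600 genes and 3 members, and all libraries in 1 fit 249 and 1. Without a library the counts were 776 to 984 and 3 to 7 members, lowest without ect replicate 2. Between c30 and ect (45 genes, 0 members) the length and GC correction called 72 genes and 1 member, the same with the replicate block 94 and 1, DESeq2 19, all libraries in 1 fit 8, and fits without a library 18 to 44 genes. For B16 wild type (0 genes, 0 members) the counts were 42 without a filter, 15 with the replicate block, 21 with the length and GC correction, 12 with both, 11 with DESeq2 and 27 with all libraries in 1 fit. Fits without a library called 3 to 1295 genes and 0 to 5 members, highest without wild-type replicate 1. For the difference of effects (82 genes, 0 members) the counts were 211 genes and 2 members without a filter, 49 genes with the replicate block, 274 and 2 with the length and GC correction, 234 and 2 with both, and 126 and 1 with DESeq2. Without a library they were 19 to 1278 genes and 0 to 8 members, highest without wild-type replicate 1. The causes were not tested, beyond fewer libraries in the last kind of fit. Between the lines all counts were within 1.5 times, with 31 to 33 members called without a library. The replicate numbers were not found to pair the libraries: deviations of replicate 1 correlated at 0.045, 0.0066 and -0.0057 between MC38 groups and at -0.23 between B16 groups. The replicate block alone left the number of members called as it was in every comparison (5 for c30, 7 for ect, 33 between the lines and 0 in the others). A block with crossed B16 numbers, chosen after seeing the data, called 5 genes and 0 members.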
